A study of Saccharomyces cerevisiae with 312 samples.

Results

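REX2 (YLR059C) and REX3 (YLR107W) are budding yeast genes for exonucleases, and each was deleted as the query mutation of 2 genetic interaction screens. The arrays of these screens were chosen by the query name in their titles, 4 of 312 arrays in the series. In such a screen the deletion is brought by mating into a mixed collection of mutants, each carrying a DNA barcode. Haploid double mutants are selected, and the level of each strain's barcode in the query population is compared on an array with its level in a reference population. The strain mix derived from BY4742/BY4741, and the double mutants grew together for 18 generations under G418 and nourseothricin. A strain is named here by its altered gene. The pool also holds strains altered at essential genes, and the labels do not describe the allele of each strain.

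Screen 1 of both queries was set against a population carrying a YEL068C deletion, and screen 2 of both against a mix of many deletion screens. The REX2 and REX3 values within a screen number thus share their reference sample. The query SHM2 (YLR058C), which encodes cytosolic serine hydroxymethyltransferase, was run against the same 2 references and is used for comparison because SHM2 lies 1 gene from REX2. Other queries were run against the same references, 6 screens in reference 1 and 10 in reference 2, SHM2 included. Nothing in the labels says that both screens of a deletion came from independent cultures. The p-values rest on the spread between screens of the same query, pooled over every query of the series. That spread may be technical, and the p-values describe these samples alone. Screen number, reference and screening day go together and cannot be told apart.

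Rex2 and Rex3 belong to the RNase D family of exonucleases, which trim RNA from its 3′ end. The family acts with partial redundancy: Rex1 (gene RNH70), Rex2 and Rex3 share work on the spliceosomal U5 RNA and on the RNA of RNase P, the enzyme that cuts the leader from tRNA precursors. Rex2 also trims U4 RNA and is found in mitochondria, where its loss alters the escape of mitochondrial DNA. Rex3 is needed to mature the RNA of RNase MRP, a relative of RNase P that acts in ribosomal RNA processing. A value below 0 means that a strain was less abundant with the query deletion than in the reference, and growth itself was not measured.

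The arrays carried the mark of their labelled crosses, the loss of strains altered near the query locus. Within 25 genes of REX2, the median log2 ratio of 22 strains was -2.04 in REX2 screen 1 and -1.74 in screen 2. The other screens of the same references, leaving out SHM2 and REX3, had medians between 0.016 and 0.23 in reference 1 for these strains. In reference 2 they had medians between 0.17 and 0.36. REX3 lies 47 genes away, and its query had means from -3.12 (IES3) to 1.57 (RIC1) for these strains. Within 25 genes of REX3, the median of 37 strains was -3.11 and -2.22 in the REX3 screens. The loss was deepest near each locus and faded with distance in both queries: between 51 and 100 genes from REX2 the medians were -0.31 and -0.09, and from REX3 -0.12 and 0.01. Since these values set the direction of the arrays, they are a check and not a result.

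**Figure D1:**
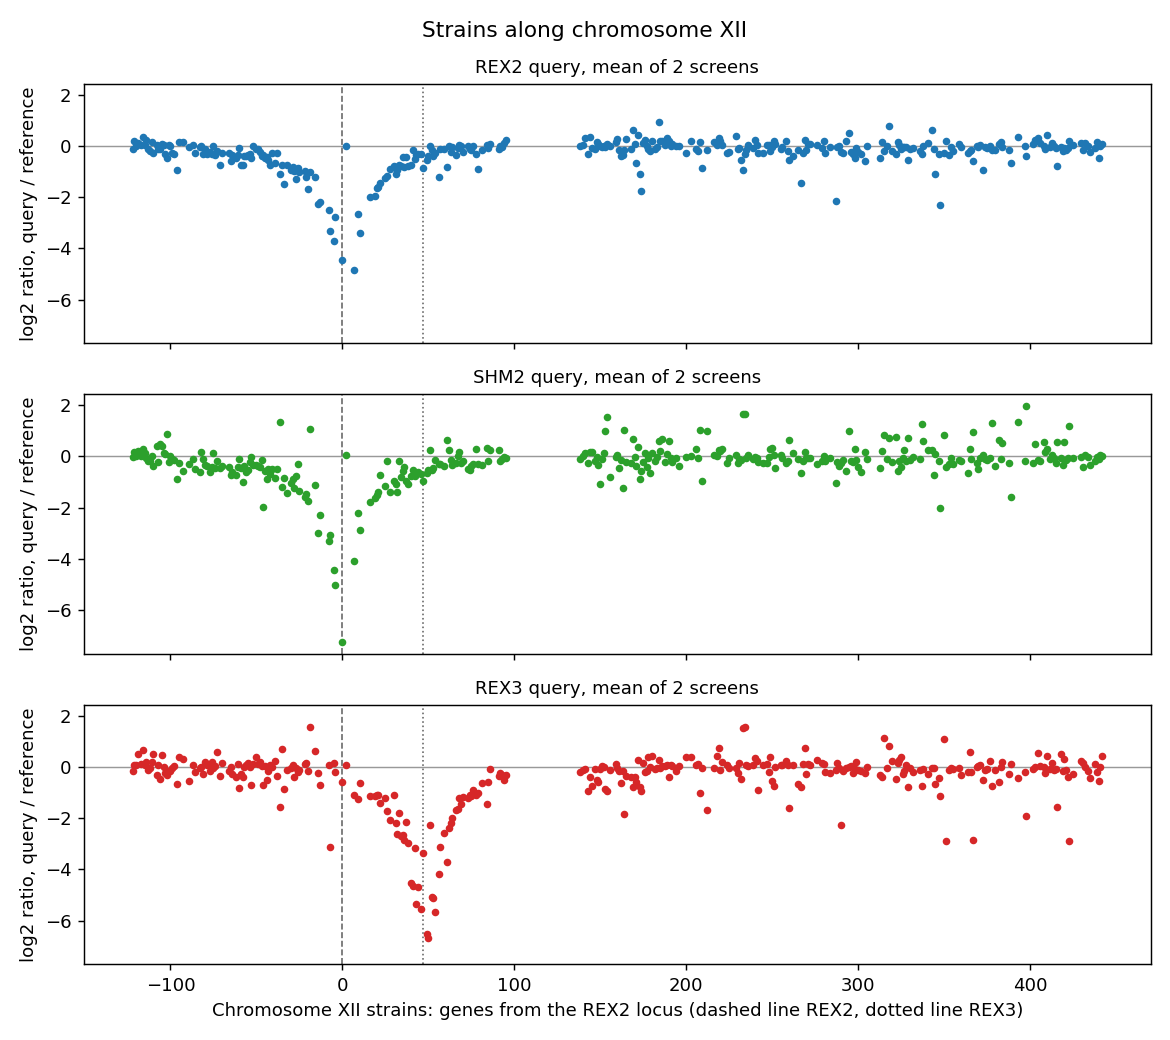
Log2 ratio of query over reference (mean of 2 screens, or 1 where only 1 was measured) for strains altered on chromosome XII, against their distance in genes from REX2; each point is a strain. Points dip around the dashed REX2 line in the REX2 and SHM2 queries and around the dotted REX3 line, 47 genes away, in the REX3 query; the empty stretch holds genes with no measured strain.

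The strain altered at each query gene was itself in the pool. The REX2 strain was at -5.73 and -3.20 in the REX2 screens, and at -0.60 and -0.62 in the REX3 screens. The REX3 strain was at -3.35 and -3.36 in the REX3 screens, and at -1.10 and -0.67 in the REX2 screens. Each strain was lower in its own query than in the other exonuclease query, and the REX2 strain was lower still in SHM2 screen 1, at -7.24. The cross between REX2 and REX3 cannot be read because they lie 47 genes apart, inside the window of 100 genes that was left out of all tests. The reference left a mark as well: 7 strains within 5 genes of YEL068C had medians of 4.87 and 5.06 in screen 1 of REX2 and REX3, against -0.03 and 0.09 in screen 2.

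Deleting REX2 lowered few strains. A strain was called lower or higher where its mean log2 ratio had a Benjamini-Hochberg adjusted p under 0.05 in limma and a size of at least 1, and 13 strains were lower and 2 higher of 3928 tested (0.331% and 0.0509%). A median query of the series had 34.5 lower and 29.0 higher strains, and 15 of 140 queries had fewer calls than REX2. In order of their means, the lowest strains were TRM7, PDA1, AGP2, QRI5, PET8 and IFM1, and the higher ones were YEL068C and FYV4. Leaving out screen 1 gave 43 calls, 9 of them among the 15. Leaving out screen 2 gave 9 calls, 3 of them among the 15. With the reference as a block there were 28 calls, which held 9 of the 15. That fit reads a query as its departure from the average of the queries linked through shared references. A strain low in many queries is thus less low in it.

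**Figure D2:**
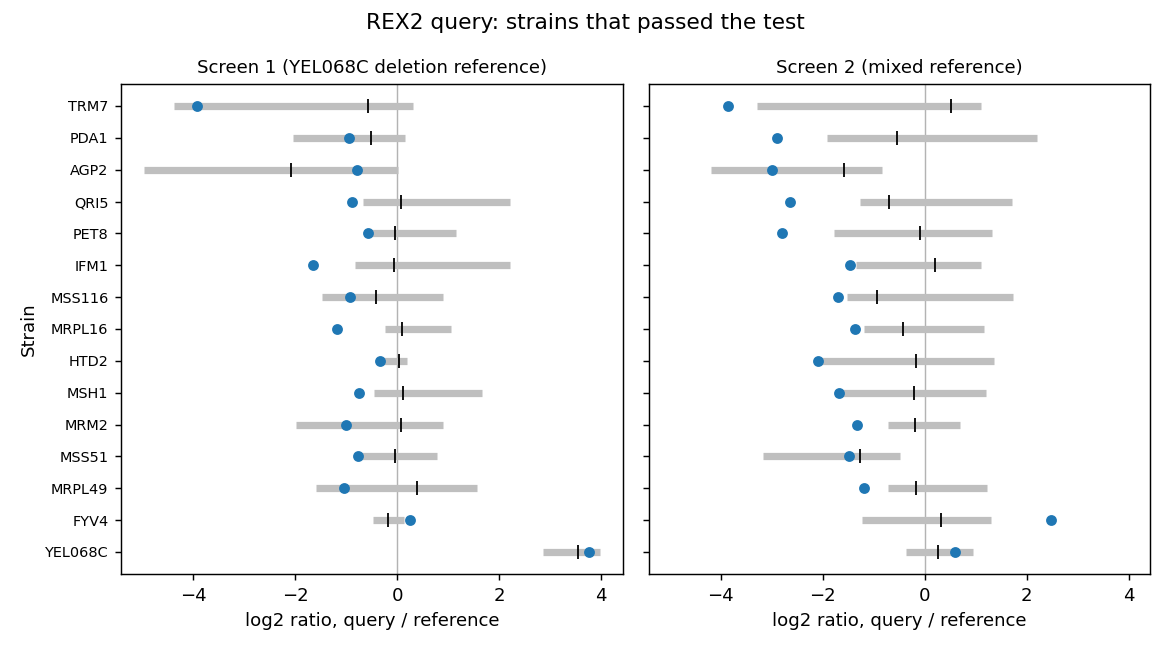
Log2 ratio of query over reference for the 15 strains called in the REX2 query, by screen; blue points are REX2, grey bars span the lowest to highest other query screen against the same reference (REX3 left out, SHM2 included), and black ticks are their medians. TRM7 is near -3.9 in both screens, whereas PDA1, QRI5 and PET8 lie lower in screen 2 than in screen 1.

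TRM7 (YBR061C, chromosome II) encodes the enzyme that methylates riboses in the anticodon loop of certain tRNAs. Its strain was at -3.91 and -3.85 in the REX2 screens, at -0.46 and -0.41 in the REX3 screens, and at -3.90 and -3.28 in the SHM2 screens. The REX2 and SHM2 screens were low and did not overlap with the REX3 screens. The REX2 mean was -3.88 ± 0.047 (SD, n = 2; limma adjusted p = 5.47e-18), and leaving out either screen kept the call. Each of the 4 array features of this strain was at -2.90 or below in every REX2 screen in which it was measured, and between -0.66 and -0.14 in the REX3 screens.

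TRM7 was as low in the query next door. The REX2 minus SHM2 difference was -0.29 (95% interval -1.28 to 0.69, limma adjusted p = 1.00), so the screens did not separate the neighbours for this strain. Among 151 queries the TRM7 strain was lowest with TRM11, a tRNA guanine methyltransferase subunit (-4.38, 1 screen), then with REX2, SHM2 (-3.59) and TRM1, another tRNA methyltransferase (-2.48). The other queries on chromosome XII, REX3 included, had TRM7 means between -0.44 and 0.95. The 8 strains altered within 5 genes of TRM7 ran from -0.16 to 0.49 in REX2 screen 1 and from -0.30 to 0.69 in screen 2, so no other strain of that neighbourhood was low.

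Among the other REX2 calls, IFM1 and MRPL16 were low to a similar degree in both screens. IFM1, the mitochondrial translation initiation factor, was at -1.64 and -1.46 with REX2 and at 0.38 and -0.85 with REX3 (REX2 mean -1.55 ± 0.13, n = 2; limma adjusted p = 0.00178). MRPL16, a protein of the large mitochondrial ribosomal subunit, was at -1.18 and -1.37 with REX2 and at -0.65 and -0.83 with REX3 (REX2 mean -1.27 ± 0.14, n = 2; limma adjusted p = 0.0307). In both strains each REX2 screen lay below every other query screen against its reference, REX3 aside, as it did for 18 of all strains tested (0.458%). Over the whole series other queries had lower means. IFM1 was at -2.70 with IRC25 (1 screen) and at -2.63 with POC4, and REX2 was not among its 5 lowest queries. MRPL16 was lowest with POC4 (-1.68), and REX2 ranked 3 of 148. The IFM1 call was lost without screen 1 (-1.46, limma adjusted p = 0.0836). The MRPL16 call was lost without either screen (adjusted p = 0.162 and 0.282) and with the reference as a block (-1.25, limma adjusted p = 0.0641).

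A second set of REX2 calls rested on screen 2. PDA1, the alpha subunit of pyruvate dehydrogenase, was at -0.94 and -2.90, and its call was lost without screen 2 (limma adjusted p = 0.509). PET8, the mitochondrial carrier of S-adenosylmethionine, was at -0.56 and -2.80, and without screen 2 its adjusted p was 0.888. QRI5, which acts in processing of the mitochondrial COX1 message, was at -0.89 and -2.64, and without screen 2 its adjusted p was 0.521. All 3 strains were below 0 in both REX2 screens and clearly lower in the second. Over the 13 strains called lower with REX2, the medians were -0.92 and -1.70 in REX2 screens 1 and 2. The same strains had medians of -0.10 and -1.14 in the REX3 screens, so screen 2 was the lower with REX3 as well. The REX2 calls chose these strains, so the medians are a description. QRI5 had the lowest value of its reference in both screens, REX3 aside, yet the REX3 query gave it 0.15 and -2.02. Over the whole series QRI5 was lowest with TOM1 (-6.59) and PDA1 with TAT1 (-3.16). MSS51, a translational activator of COX1, is altered next to QRI5 on the chromosome, 173 and 174 genes from REX2. It was at -0.76 and -1.49 with REX2 (limma adjusted p = 0.0427), and at -0.32 with the reference as a block (adjusted p = 0.786).

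The other strains lower with REX2 were nearer the size limit. Over the whole series MSH1 and MRM2, named next, were lowest with TOM1, at -5.53 and -2.97. MSH1, the mitochondrial MutS homologue, had -0.74 and -1.67 (limma adjusted p = 0.0058), and without screen 2 its adjusted p was 0.476. MRM2, a mitochondrial ribosomal RNA methyltransferase, had -0.99 and -1.33 (adjusted p = 0.0207), and the call was lost without either screen (adjusted p = 0.0943 and 0.308). MSS116, a mitochondrial RNA helicase that acts in intron splicing, had -0.92 and -1.70 with REX2 and -0.86 and -1.95 with REX3. It was called in both queries, and in REX2 not with the block (-1.25, limma adjusted p = 0.0536) nor without screen 2 (adjusted p = 0.479). MRPL49, of the large mitochondrial ribosomal subunit, had -1.04 and -1.18 (adjusted p = 0.025), and lost its call with the block (-0.93, adjusted p = 0.199). HTD2, an enzyme of mitochondrial fatty acid synthesis, had -0.33 and -2.08 (adjusted p = 0.0291) and was low in screen 2 alone. In screen 2 the HTD2 strain was also at -1.01 with REX3 and at -1.08 with SHM2.

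AGP2, a plasma membrane regulator of polyamine and carnitine transport, was at -0.79 and -2.99 with REX2 and at -0.91 and -2.83 with REX3, and was called lower in both. The other screens of these references had medians of -2.08 and -1.58, so no REX2 or REX3 screen stood outside them. The AGP2 strain was called lower in 26 queries. With the reference as a block, which reads a query against the average query, the REX2 value was 0.075 and the REX3 value 0.091 (limma adjusted p = 0.983 and 0.979). The REX2 call was also lost without screen 2 (limma adjusted p = 0.814). The 2 strains called higher with REX2, named after their values were seen, were YEL068C, the altered gene of reference 1 itself (3.75 and 0.59), and FYV4 (0.25 and 2.47). With the block the YEL068C call was lost (0.51, limma adjusted p = 0.451). Both FYV4 values, and those of 34 of all strains tested (0.866%), lay above every other query screen against the same reference, REX3 aside.

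Deleting REX3 lowered more strains, 42 of 3956 tested, and 4 were higher (1.06% and 0.101%). Of 140 queries, 42 had fewer calls than REX3. Strains altered in splicing, in the RNase P and MRP protein RPP1, in small ribosomal subunit proteins and in endosomal sorting were among them. Leaving out screen 1 gave 75 calls, 33 of them among the 46, and leaving out screen 2 gave 24, 9 of them among the 46. With the reference as a block, 64 strains were called and 24 were shared. With quantile normalization, 66 were lower and 26 higher. In both screens 14 of the 42 lower strains lay below every other query screen against the same reference, REX2 aside, as did 105 of all strains tested (2.65%). The REX3 calls chose these 14, so the share is a description.

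**Figure D3:**
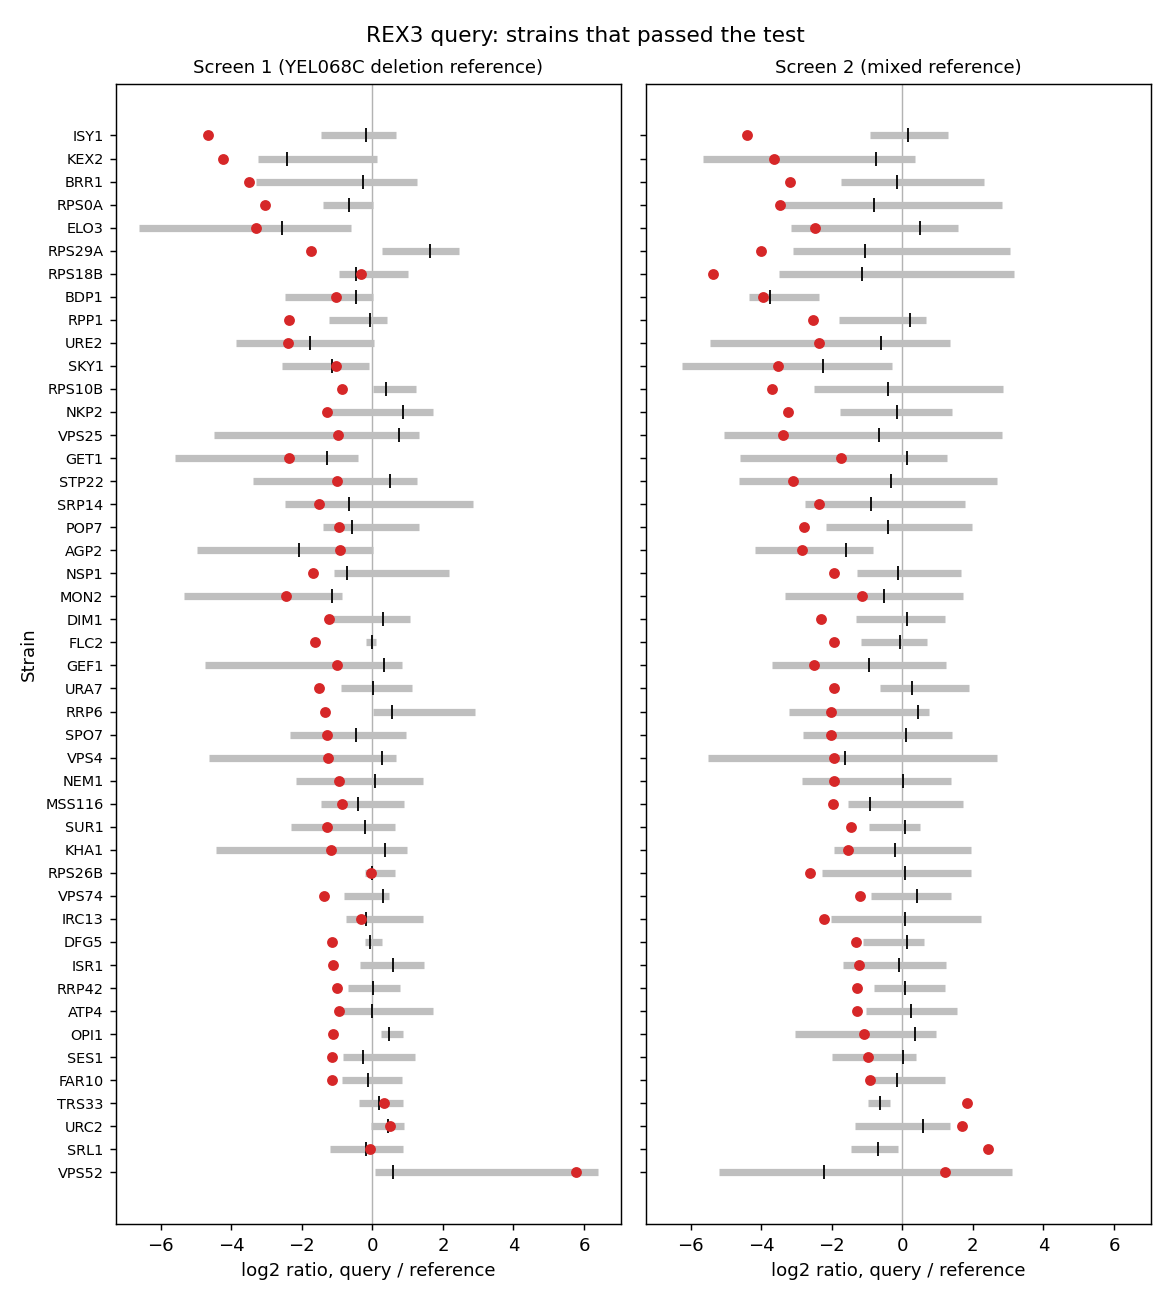
Log2 ratio of query over reference for the 46 strains called in the REX3 query, by screen; red points are REX3, grey bars span the lowest to highest other query screen against the same reference (REX2 left out, SHM2 included), and black ticks are their medians. ISY1, BRR1 and RPP1 lie outside the grey bars in both screens, whereas KEX2 and URE2 lie inside them in at least 1 screen.

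ISY1 (YJR050W, chromosome X), a component of the Prp19-associated complex of the spliceosome, was the lowest strain of the REX3 query. It was at -4.66 and -4.40 with REX3, at 0.05 and -0.53 with REX2, and at -0.52 and 0.93 with SHM2. The REX3 screens stood far below all others, whose lowest value was -1.45 in reference 1 and -0.91 in reference 2. The REX3 mean was -4.53 ± 0.19 (SD, n = 2; limma adjusted p = 8.98e-26), kept without either screen and with the block. Of 151 queries REX3 had the lowest ISY1 mean, and PIN4 followed at -2.16. Both ISY1 features were low with REX3, between -5.20 and -4.08. The 5 strains altered within 5 genes of ISY1 lay between -0.21 and 1.15 in the REX3 screens.

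BRR1 (YPR057W, chromosome XVI), a protein of spliceosomal snRNP assembly, was at -3.51 and -3.19 with REX3. With REX2 it was at 0.23 and -1.92, and with SHM2 at -0.20 and 0.78. Both REX3 screens were low, and REX2 was lower in screen 2 only. The REX3 mean was -3.35 ± 0.22 (n = 2; limma adjusted p = 4.7e-07), the lowest of 150 queries, followed by SRO9 at -2.93. This value rests on 1 array feature. The other BRR1 feature, left out for its missing values, read -1.26 and -2.38 with REX3, and with every feature kept the mean was -2.62 (limma adjusted p = 0.000143). The 10 strains altered within 5 genes of BRR1 ran from -0.91 to 0.50 in REX3 screen 1 and from -0.02 to 0.41 in screen 2. Across the list of U4, U5, U6 and other splicing factors, to which BRR1 does not belong, ISY1 was the 1 of 26 tested strains called lower with REX3 (1.06% over all strains), and the list's median was 0.13. None of 26 was called with REX2, with a median of 0.07.

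RPP1 (YHR062C, chromosome VIII) encodes a protein subunit shared by RNase P and RNase MRP. It was at -2.36 and -2.54 with REX3, at 0.50 and 0.45 with REX2, and at 0.24 and -0.04 with SHM2. The REX3 screens were low, the REX2 screens lay above 0, and the groups did not overlap. The REX3 mean was -2.45 ± 0.13 (n = 2; limma adjusted p = 1.33e-10), the lowest of 147 queries, with MOD5, a tRNA isopentenyltransferase, next at -2.26. Leaving out either screen kept the call. The 6 strains altered within 5 genes of RPP1 ran from -0.11 to 0.32 in REX3 screen 1 and from -1.01 to 1.17 in screen 2. With REX2 they ran from -2.08 to 2.47 in screen 2, where the ends of the range were HTD2 and FYV4, both called with REX2.

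Other subunits of these enzymes moved less. POP7, also shared by RNase P and MRP, was at -0.95 and -2.80 with REX3 (mean -1.87 ± 1.31, n = 2; limma adjusted p = 0.0469) and at 0.53 and -0.61 with REX2. The POP7 mean ranked 15 of 149 queries from the lowest. Of the RNase P and MRP list, 6 of 11 genes were tested, and RPP1 and POP7 were lower with REX3 and none was called with REX2 (1.06% and 0.331% lower over all strains). The median over the 6 was 0.0046 with REX3 and 0.15 with REX2, so the remaining 4 lay near 0.

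Strains of the nuclear exosome, the complex that trims and degrades RNA from the 3′ end, and of its TRAMP cofactor gave 2 lower of 12 tested with REX3 and none with REX2 (1.06% and 0.331% over all strains). RRP6, its nuclear exonuclease, was at -1.35 and -2.03 with REX3 and at 0.45 and -0.45 with REX2 (REX3 mean -1.69 ± 0.48, n = 2; limma adjusted p = 0.0052). Before centring, its array features read -0.59 and -2.07 in REX3 screen 1, and screen 2 rested on 1 feature (-1.91). Across queries RRP6 was lowest with SSU72 (-4.11), and REX3 was not among its 5 lowest queries. RRP42, a core subunit, was at -0.99 and -1.27 with REX3 and at -0.21 and -0.58 with REX2 (REX3 mean -1.13 ± 0.20, n = 2; limma adjusted p = 0.00164). RRP42 was below every other query screen of both references, REX2 aside, and its size fell under 1 with the block (-0.86, limma adjusted p = 0.0352). Among queries, RRP42 was lowest with RRP6 (-4.48), and REX3 ranked 3 of 147. The median of this list was -0.19 with REX3 and -0.03 with REX2, against 0.0011 and 0.0049 over all strains tested.

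The relatives of REX2 and REX3 in the RNase D family gave no call in either query. RNH70, the gene of Rex1, was at -0.53 and 0.30 with REX2 and at -0.84 and -0.48 with REX3 (REX3 mean -0.66, limma adjusted p = 0.173). REX4, which acts in ribosomal RNA processing, was at 0.62 and -0.16 with REX2 and at 0.57 and -0.27 with REX3. RNH70 was below 0 in both REX3 screens, and REX4 changed sign between screens in both queries. Of 7 tested strains in the list of these and related exonucleases, none was called at this precision (list medians 0.17 with REX2 and -0.04 with REX3).

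Of the small ribosomal subunit strains, 5 of 17 tested were lower with REX3 (1.06% over all strains) and none was higher. RPS29A was at -1.73 and -4.00 with REX3 and at 1.51 and -2.71 with REX2. RPS10B was at -0.85 and -3.69 with REX3 and at 1.04 and -2.48 with REX2. RPS18B, at -0.31 and -5.36, and RPS26B, at -0.03 and -2.61, were low in REX3 screen 2 alone, and RPS0A was low in both REX3 screens, at -3.05 and -3.46. The list median was -0.03 in REX3 screen 1 and -1.91 in screen 2, and in REX2 it was 0.35 and -1.91, with none of 18 strains called. The list medians of the other screens against reference 2 ran from -2.08 to 1.97, so the low second screen of both queries was within their range. As single strains, RPS0A, RPS10B and RPS29A lay below every other query screen of both references, REX2 aside. So did 105 of all strains tested (2.65%), and the REX3 calls chose these strains. RPS29A kept its call with the block (-2.80, limma adjusted p = 0.000654), and lost it without screen 2 (-1.73, adjusted p = 0.437). RPS0A (-1.38), RPS18B (-1.37), RPS10B (-1.49) and RPS26B (-0.65) lost theirs with the block, with limma adjusted p of 0.236, 0.237, 0.0602 and 0.333.

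Endosomal sorting strains gave 3 lower of 23 tested with REX3 and none with REX2 (1.06% and 0.331% over all strains). VPS25, of ESCRT-II, was at -0.97 and -3.39 with REX3, and STP22, of ESCRT-I, at -1.001 and -3.09. VPS4, the ATPase that disassembles the ESCRT complexes, was at -1.26 and -1.94. All were below 0 in both REX3 screens and inside the range of the other screens of each reference. The list median was -0.48 and -1.30 in the REX3 screens and -0.52 and -0.15 in the REX2 screens, and other screens reached from -3.07 to 1.02 in reference 1. With the block the VPS25 and VPS4 calls were lost (limma adjusted p = 0.0719 and 0.389).

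Of the mitochondrial ribosome list, 2 of 42 strains were lower with REX2 (MRPL16 and MRPL49) and none of 39 with REX3. Over all strains, 0.331% were lower with REX2 and 1.06% with REX3, and the same shares apply to the next lists of this paragraph. The list median was -0.05 in REX2 screen 1 and -0.96 in screen 2. The second value was below the lowest list median of the other screens of that reference, -0.73, and REX3 gave -0.77 there. For mitochondrial DNA and RNA upkeep, 2 of 25 strains were lower with REX2 (MSS116 and MSS51) and 1 of 24 with REX3 (MSS116). For the respiratory chain and ATP synthase, none of 53 was called with REX2 and ATP4, a stalk subunit of the ATP synthase, was the 1 of 55 with REX3, at -0.94 and -1.29.

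**Figure D4:**
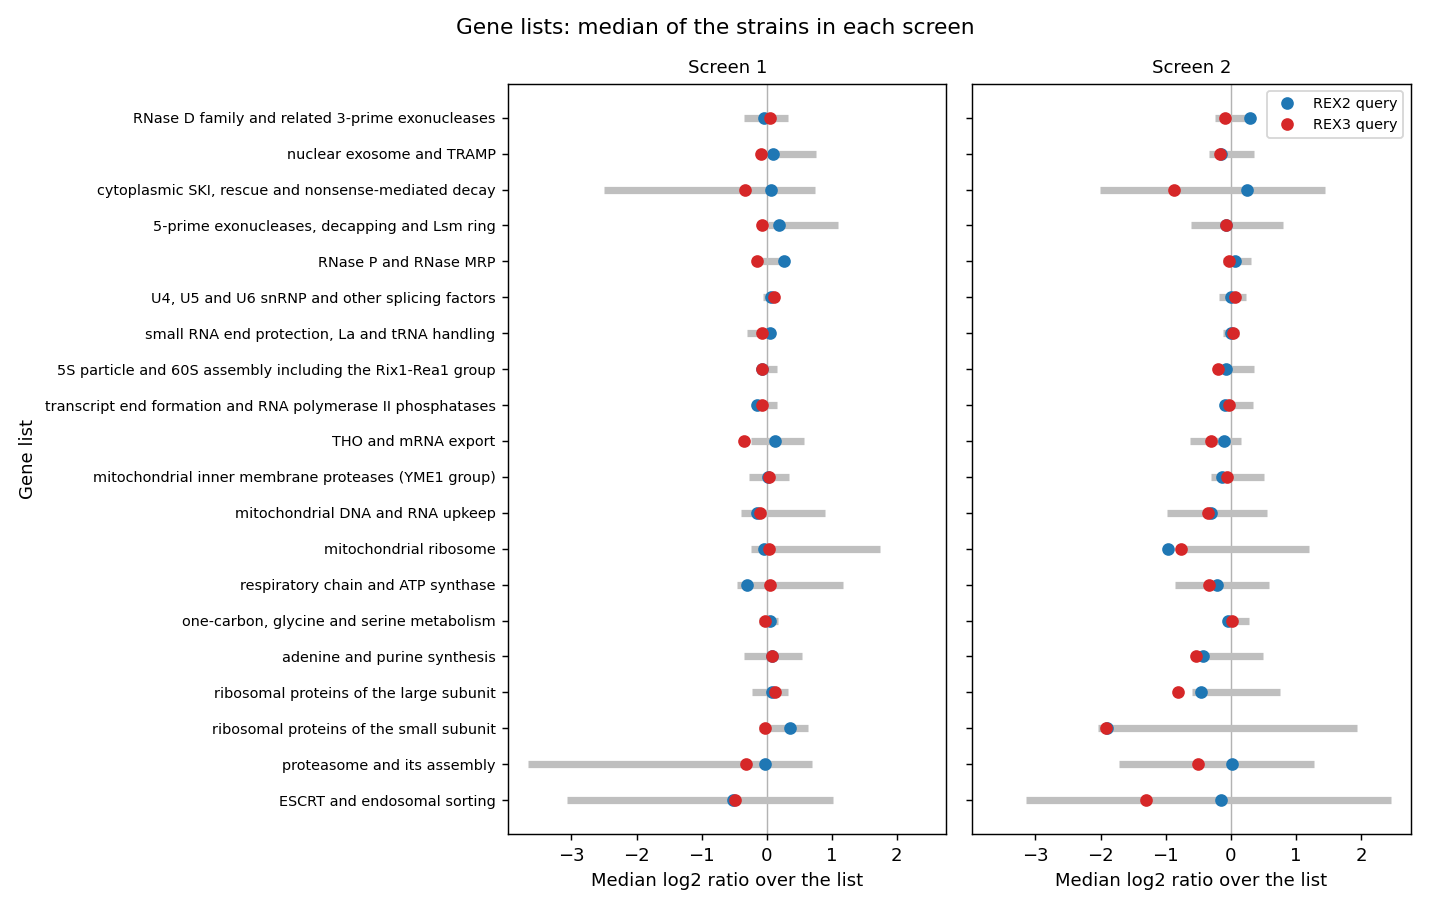
Median log2 ratio of query over reference for the strains of each of 20 gene lists, in screens 1 and 2; blue points are REX2, red points REX3, and grey bars span the list medians of the other query screens against the same reference. Small ribosomal subunit strains are near -1.91 in screen 2 of both queries, within the grey bar.

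Several further REX3 calls stood outside the other screens of both references. They were picked after their values were seen. Over the whole series other queries had lower means for some of them. REX3 ranked 5 of 154 from the lowest for FLC2, 8 of 149 for DIM1, 7 of 145 for DFG5 and 5 of 152 for NSP1. FLC2, a putative flavin carrier, was at -1.62 and -1.94 with REX3 and at 0.09 and 0.11 with REX2. URA7, the major CTP synthase, was at -1.51 and -1.94 with REX3 and at -0.78 and -0.34 with REX2. DIM1, the dimethylase of small subunit ribosomal RNA, was at -1.24 and -2.32 with REX3 and at 0.01 and -1.06 with REX2. Each was low in both REX3 screens and kept its call with the block. NSP1, a nucleoporin, was at -1.67 and -1.94 with REX3 and at -0.85 and -1.10 with REX2. VPS74, which retains glycosyltransferases in the Golgi, was at -1.38 and -1.21 with REX3 and at 0.11 and 0.24 with REX2. DFG5, a putative cell wall mannosidase, was at -1.15 and -1.30 with REX3 and at -0.07 and -0.24 with REX2.

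Other strong REX3 values belonged to strains that are low in many screens. KEX2, a Golgi protease, was at -4.22 and -3.65 with REX3 and at -2.15 and -1.35 with REX2, and it was called lower in 24 queries. Its REX3 call was lost with the block (-1.88, limma adjusted p = 0.186). ELO3, a fatty acid elongase (-3.29 and -2.47), BDP1, a subunit of RNA polymerase III factor TFIIIB (-1.03 and -3.94), URE2, a regulator of nitrogen use (-2.38 and -2.35), and SKY1, a kinase of SR-type proteins (-1.03 and -3.53), were lower in 14 to 27 queries. With the block, which reads REX3 against the average query, their values were -1.77, -0.96, -0.95 and -0.39 and none was called (limma adjusted p from 0.164 to 0.877). BDP1 and SKY1 lost the call without screen 2 (adjusted p = 0.707 and 0.715), ELO3 without screen 1 (0.214) and URE2 without either screen (0.123 and 0.117).

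Of the 4 strains higher with REX3, named after their values were seen, none was above the other screens of both references, REX2 aside, whereas 75 of all strains tested were (1.9%). VPS52, of the GARP tethering complex, was at 5.79 and 1.20, and its call was lost without screen 1 (limma adjusted p = 0.832) and with the block (2.30, adjusted p = 0.183). URC2, a factor of uracil breakdown, was at 0.51 and 1.68, and its call was lost without screen 2 (adjusted p = 0.69) and with the block (0.87, adjusted p = 0.0647). SRL1, a cell wall mannoprotein, was at -0.06 and 2.44, and TRS33, of the TRAPP complexes, at 0.33 and 1.84. These last strains were high in REX3 screen 2 alone.

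The direct comparison asked which strains respond differently to loss of the related exonucleases. Of 3880 strains tested for REX2 minus REX3, 1 was lower with REX2 (0.0258%) and 3 were higher (0.0773%), and 79 (2.04%) had an unadjusted p under 0.05. TRM7 was lower with REX2, and ISY1, RPP1 and ISR1 were lower with REX3. With the reference as a block 9 strains were called, these 4 among them. Quantile normalization gave 5 lower and 7 higher.

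The difference was alike in both references for each of these strains. For TRM7 it was -3.46 in screen 1 and -3.44 in screen 2, with a mean of -3.45 (SE 0.50, 95% interval -4.43 to -2.46, limma adjusted p = 2.48e-07). For ISY1 it was 4.71 and 3.87, with a mean of 4.29 (SE 0.46, interval 3.38 to 5.20, limma adjusted p = 3.54e-13). For RPP1 it was 2.87 and 3.00, with a mean of 2.93 (SE 0.44, interval 2.07 to 3.80, limma adjusted p = 4.78e-07). These 3 calls held when either screen was left out. ISR1, a predicted protein kinase, was at 0.55 and 0.56 with REX2 and at -1.13 and -1.24 with REX3, which gave 1.74 (SE 0.39, interval 0.96 to 2.51, limma adjusted p = 0.0169). The ISR1 call was lost without either screen and with all arrays as deposited (1.74, limma adjusted p = 0.0719). Its difference was 1.80 without screen 1 and 1.67 without screen 2. Over the whole series ISR1 was lowest with SSU72 (-6.47, 1 screen) and RAI1 (-2.46), and REX3 was not among its 5 lowest queries.

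**Figure D5:**
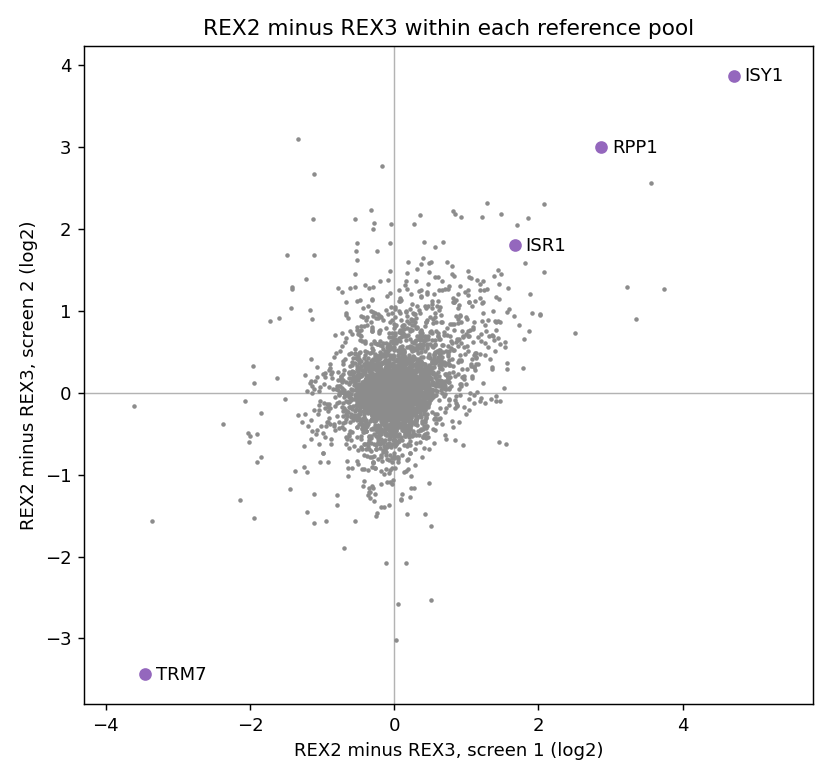
REX2 minus REX3 log2 ratio in screen 1 (x axis) and screen 2 (y axis) for 3880 strains, each a grey point, with the 4 called strains in purple. TRM7 lies at the lower left, at -3.46 and -3.44, and ISY1, RPP1 and ISR1 at the upper right.

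The 95% intervals given here are not adjusted for the number of strains, and each leaves out 0. For the following other strains with a REX3 call the difference did not pass the adjusted test. It was 2.51 for BRR1 (95% interval 1.03 to 3.99, limma adjusted p = 0.469), 1.69 for RRP6 (0.49 to 2.89, adjusted p = 1.00), 1.83 for POP7 (0.15 to 3.51, adjusted p = 1.00) and 1.88 for FLC2 (0.84 to 2.92, adjusted p = 0.315). With the block, which pairs the screens by reference, FLC2 passed (limma adjusted p = 0.0161) and BRR1 fell just short (limma adjusted p = 0.0572). For IFM1, called with REX2, the difference was -1.31 (-2.33 to -0.30, adjusted p = 1.00). Among all strains, 49 differed by at least 1 the same way in both screens, 41 of them higher with REX2 and 8 higher with REX3.

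Across strains, the profiles of the REX2 screens were less alike than those of REX3 or SHM2. Over 3868 strains outside the linked windows, Pearson's r between the REX2 screens was 0.0565, over 3897 strains it was 0.231 between the REX3 screens, and over 3854 strains 0.335 between the SHM2 screens. These screens share the pool of strains and not the reference. Between REX2 and REX3, in screens of different references, r was -0.0172 and -0.0295. Ranked by mean r over screens of different references, the queries most like REX2 were OTU1 (0.242), PAN2 (0.229), OCA2 (0.218), YKL023W (0.215) and SEM1 (0.214), and REX3 ranked 121 of 153. These means cover unlike pairs of screens, from -0.0184 to 0.538 for OTU1, from 0.0307 to 0.454 for PAN2 and from 0.0024 to 0.430 for YKL023W, while SEM1 ran from 0.191 to 0.256. Those most like REX3 were RPN4 (0.326), NPR3 (0.314), OCA5 (0.312), OCA2 (0.309) and UBP6 (0.299), and their pairs of screens ran from 0.0107 (OCA5) to 0.598 (OCA2). The median of these mean r values over all 153 queries was 0.0398 for REX2 and 0.0152 for REX3. The r of 0.0565 between the REX2 screens was little above that median, so ranks of likeness to REX2 rest on a profile that hardly repeated. The spread of the REX2 screens was small, with SDs over strains of 0.475 and 0.507, below the lowest of the other screens of each reference (0.552 and 0.513). The REX3 screens had 0.623 and 0.679, and 4067 to 4110 strains were measured per screen of either query.

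Set against SHM2, its neighbour on the chromosome, REX2 had no strain lower and 5 higher of 3879 tested (0.0% and 0.129%), and 109 strains had an unadjusted p under 0.05 in limma. The 5 were strains low with SHM2. MIS1, the mitochondrial one-carbon enzyme C1-tetrahydrofolate synthase, was at -0.16 and 0.06 with REX2 and at -1.90 and -6.02 with SHM2. HPT1, of purine salvage, was at -0.19 and -0.28 with REX2 and at -2.58 and -4.43 with SHM2. PHO2, a regulator of purine and phosphate genes, was at 0.13 and -1.19 with REX2 and at -2.42 and -4.81 with SHM2. The differences were 3.91, 3.27 and 3.09 (limma adjusted p = 1.17e-16, 0.00593 and 0.0179). POS5, a mitochondrial NADH kinase, differed by 2.08 (adjusted p = 0.0197), and YMC1, a mitochondrial carrier named after its values were seen, by 1.22 (adjusted p = 0.0179). The REX2 and SHM2 queries thus shared the low TRM7 strain and differed at MIS1. Without screen 2, 3 strains were called, and the HPT1, PHO2 and POS5 calls were lost (limma adjusted p = 1.00 for each). PHO2 also lost its call without screen 1 (adjusted p = 0.0902). With the block 8 were called. Quantile normalization gave 10 lower and 11 higher, and scaling arrays to one spread gave 7 lower and 8 higher.

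REX3 differed from SHM2 at more strains, with 39 lower and 10 higher of 3865 tested (1.01% and 0.259%). ISY1 was lower by -4.73 (limma adjusted p = 5.09e-16) and RPP1 by -2.56 (adjusted p = 2.2e-05). TRM7 was higher by 3.15 (adjusted p = 3.52e-06), HPT1 by 4.13, MIS1 by 3.98 and PHO2 by 3.48. The ESCRT-II strains VPS25, VPS36 and SNF8 were lower by -4.02, -3.87 and -3.80 (adjusted p = 0.00716, 0.00802 and 0.013). These were high with SHM2, at 0.87 and 2.82 for VPS25, 1.23 and 2.69 for VPS36, and 1.28 and 2.90 for SNF8. All 3 ESCRT-II calls were lost without screen 2 (limma adjusted p = 1.00 for each) and with all arrays as deposited (adjusted p = 0.0691, 0.0774 and 0.0801). HPT1 and PHO2 were lost without screen 2 (adjusted p = 0.136 and 0.752). Without screen 2, 7 strains were called, without screen 1, 83, and with the block 132, which held all 49. Quantile normalization gave 66 lower and 33 higher.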

How the data were processed

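Query DNA was in Cy3 and reference DNA in Cy5, per the labels. The authors deposited 1 value per array feature, taken here as a log2 ratio. No source used here gives its log base, normalization, centring or sign. The base was set to 2, since base e would turn the top value into a 13526710-fold ratio. Ratios carry no depth or signal over background, and precision is limited by how many arrays there are. Features with 1 gene symbol (13084 of 15744) and a value on at least 80% of arrays were kept (8632), averaged by symbol and centred on each array's median, which gave 4125 strains. Of 5100 symbols 5098 matched the annotation, used for names and gene order only. Across the series 17 arrays whose strains near the query were high were turned, none of them REX2, REX3 or SHM2.

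A mean per query was fitted over 304 screens of 154 queries with limma 3.58.1 in R 4.3.3, with each strain's spread estimated from every query together. Strains within 100 genes of a query were left out. Benjamini-Hochberg adjustment ran over 547925 pairs of strain and query, or over the strains of a contrast. Tests were two-sided, and the fit was tested on simulated data. REX2, REX3 and SHM2 screens pair by reference, per the labels; the screen 1 minus screen 2 values of the queries correlated with r of 0.61, 0.43 and 0.18. The block fit adds the reference. Its value for a query is the departure from the average of the queries linked through shared references, not the query's mean log2 ratio. Alternatives were leaving out a screen, arrays as deposited, other normalization, filters, samples and windows. Strains were named by rank among called strains at least 0.5 in the same direction in both screens, by the 20 gene lists, and as relatives or neighbours of the loci. The queries and gene lists were chosen with earlier results of these data known.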

Additional observations from a re-analysis of the deposited data

Results flagged for a closer look

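The following differences between queries passed their own test in limma. For REX2 minus REX3 these were TRM7 (-3.45), ISY1 (4.29), RPP1 (2.93) and ISR1 (1.74), the last lost without either screen. For REX2 minus SHM2 these were MIS1 (3.91), HPT1 (3.27), PHO2 (3.09) and POS5 (2.08). For REX3 minus SHM2 these were ISY1 (-4.73), VPS25 (-4.02), VPS36 (-3.87), SNF8 (-3.80), HPT1 (4.13), MIS1 (3.98), PHO2 (3.48) and TRM7 (3.15). All are log2 differences of query means, n = 2 screens each.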

How the results depend on the processing

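Both the counts and the values moved with the processing. For REX2, REX3, REX2 minus REX3, REX2 minus SHM2 and REX3 minus SHM2, in this order, 15, 46, 4, 5 and 49 strains were called. Quantile normalization gave 73, 92, 12, 21 and 99, and scaling arrays to one spread gave 89, 135, 19, 15 and 153. A fit of the REX2, REX3 and SHM2 screens alone gave 1 (TRM7), 1 (RPP1), 0, 0 and 0 by limma, where 174, 158 and 411 strains had an unadjusted p under 0.05 in the 3 differences. The reference as a block, which pairs screens, gave 28, 64, 9, 8 and 132. Leaving out 1 screen gave 9 to 43, 24 to 75, 3 to 6, 3 to 7 and 7 to 83, a lone screen being assumed to vary like those of other queries. With all arrays as deposited, REX3 minus SHM2 had 28. The cause was not tested. Within 10 genes in place of 25, the linked medians were -3.25 for REX2 and -4.71 for REX3, against -1.89 and -2.66, since fewer and nearer strains were read. Quantile normalization and scaling took TRM7 in REX2 from -3.88 to -5.63 and -5.82, and PDA1 from -1.92 to -3.06 and -2.90. Of 38 named results, the block turned AGP2 in REX2 (0.075) and ended 10 other calls, and it changed no further call among them. For REX2 and REX3 by themselves, the block values are departures from the average query. Leaving out screen 1 or 2 ended 8 and 22, and arrays as deposited ended 6. Quantile normalization ended 1, VPS52 in REX3 (2.31, limma adjusted p = 0.0602). Among the 6 were the AGP2 and PET8 calls in REX2 (limma adjusted p = 0.0593 and 0.0621). No named call was lost with every feature kept, a window of 150 genes or strains near YEL068C left out, nor among the 34 that had at least 2 features.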
